A study of Mus musculus with 9 samples.

Results

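Aminoacyl-tRNA synthetases are the enzymes that charge each tRNA with its amino acid, the step that supplies amino acids to the ribosome. Most cells carry a cytosolic set and a separate, nuclear-encoded mitochondrial set, and in mammals several of the cytosolic enzymes are held together with scaffold proteins in the multisynthetase complex. Cytosolic synthetase genes are known targets of ATF4, a transcription factor of the amino acid and integrated stress responses, and neutrophils are known to make most of their granule proteins before they leave the bone marrow. The 36 genes described here were taken from the deposited expression table by gene name alone, and are 20 cytosolic enzymes and 16 mitochondrial enzymes (symbols ending in 2) of 46517 genes listed. Gars and Kars encode both the cytosolic and the mitochondrial forms of their enzymes and were counted with the cytosolic set. All 36 had at least 10 reads in at least 3 libraries and so were among the 13014 genes tested.

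Neutrophils came from C57BL/6 mice on day 27 after injection into the pancreas of a luciferase-expressing pancreatic ductal adenocarcinoma line. These recipients are called OT (orthotopic transplanted) mice. Live cells positive for CD45, Ly6G and Ly6C and negative for CD3, B220 and NK1.1 were sorted from bone marrow, blood and the pancreatic tumor, with the bone marrow fraction labelled Ly6G.hi, in 3 independent experiments of 5 pooled mice each. The result is 9 libraries, 3 per compartment, all from tumor-bearing mice, so each comparison is between sites within such mice, and neutrophils from mice without a tumor were not analysed here. Male and female mice were used in the study, matched between groups for sex and age, and the sex and age of the mice in each pool are not given in the sources used here. Each gene has a deposited log2 FPKM (fragments per kilobase of gene and scaled library), from which the reads of each library were recovered, and levels are given as RPM, the reads per 1000000 of the library size as scaled by the authors, for replicates 1, 2 and 3 in that order. Differences are on the log2 scale of the deposited values with their standard error (SE), and their p-values are from limma with Benjamini-Hochberg adjustment over all 13014 genes, called at an adjusted p under 0.05. They measure the spread between 3 pools per compartment.

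The recovered reads numbered 4580807 to 7949367 per library, and the library sizes used for scaling were 1.08 to 1.22 times those totals in tumor and 0.796 to 0.881 times in the other libraries. Over all genes the median difference was 0.32 for tumor minus blood, 0.088 for tumor minus bone marrow and -0.11 for blood minus bone marrow. The tumor libraries stood apart in transcripts of other cells. All 9 tumor epithelium markers, which summed to 2404 to 4583 RPM in tumor, 14.2 to 165 in blood and 8.84 to 12.9 in bone marrow, were higher in tumor than in each other compartment. Of 10 pancreatic acinar markers, which summed to 790 to 2944 RPM in tumor and 1.77 to 10.9 elsewhere, the 9 tested and the 7 fibroblast markers (970 to 1114 against 0.213 to 12.5 RPM) were likewise all higher in tumor. Tumor replicate 3 had the highest epithelial and acinar sums of all libraries, and blood replicate 2 the highest epithelial sum outside the tumor. Ly6g itself, the gate's antigen, stood at 713, 926 and 682 RPM in bone marrow, at 147, 117 and 133 in blood, and at 73.5, 26.4 and 35.5 in tumor. Of 10 neutrophil markers, 8 were lower and 2 higher in tumor than in blood (27.1% and 39.1% of all genes). Against bone marrow, 9 were lower and 0 higher in tumor (25.8% and 30%). In blood, 8 were lower and 2 higher than in bone marrow (24.6% and 17.8%). Blood, where most synthetases were lowest, had the highest sums of macrophage markers (1494 to 1671 RPM, against 409 to 585 elsewhere) and of lymphocyte markers (75.3 to 132 against 4.91 to 57.9), and all 6 tested lymphocyte markers were lower in tumor than in blood. The 8 macrophage markers did not move together. In tumor 2 were higher and 2 lower than in blood (median 0.84), and in blood 3 were higher and 1 lower than in bone marrow (median -0.37). Genes of granulocyte precursors summed to 1326 to 1869 RPM in bone marrow and at most 13.2 elsewhere, while cell cycle markers summed to 38.2 to 47.3 RPM in blood, 226 to 366 in tumor and 694 to 819 in bone marrow. The part of these other transcripts in the differences of the synthetases was not tested, and in such bulk libraries fewer cells of a type and less RNA per cell cannot be told apart.

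Synthetase mRNA was most abundant in the tumor libraries and least abundant in blood. The 36 genes together took up 708, 797 and 759 RPM in blood, 1326, 1205 and 1460 RPM in bone marrow, and 2047, 1825 and 2501 RPM in tumor. No compartment overlapped another in this sum. The mean log2 level was lowest in blood for 32 of the 36 genes and highest in tumor for 30, and for 28 of them the full order was tumor, bone marrow, blood. Tumor replicate 3, the highest of the 9 in this sum, is also the library with the most epithelial and acinar transcripts. Bone marrow, which exceeded blood, had the highest sums of granulocyte precursor (1326 to 1869 RPM) and cell cycle (694 to 819 RPM) markers. The part of these transcripts in the synthetase sums was not tested.

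Between tumor and blood, 29 of the 36 synthetases were higher in tumor, where 39.1% of all genes tested were, and 0 were lower, where 27.1% were. The other 7 had an adjusted p of at least 0.0663 in limma, and the count of lower genes was also 0 at an unadjusted p under 0.05 and with limma-voom on the recovered reads. The median difference was 2.32 for the synthetases against 0.32 for all genes, and the range ran from -0.32 (Qars) to 4.31 (Pars2). Between tumor and bone marrow, 18 were higher in tumor (30% of all genes) and 2 were lower (25.8%), with a median difference of 0.81. Between blood and bone marrow, 21 were lower in blood (24.6% of all genes) and 1, Nars, was higher (17.8%), with a median of -1.22. In tumor, 17 exceeded both blood and bone marrow, which 23.2% of all genes were, and 0 were lower than in both by limma, by limma-voom or at an unadjusted p under 0.05, which 17.9% of all genes were by limma. These comparisons share libraries pairwise, so their counts are not independent of each other.

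**Figure D1:**
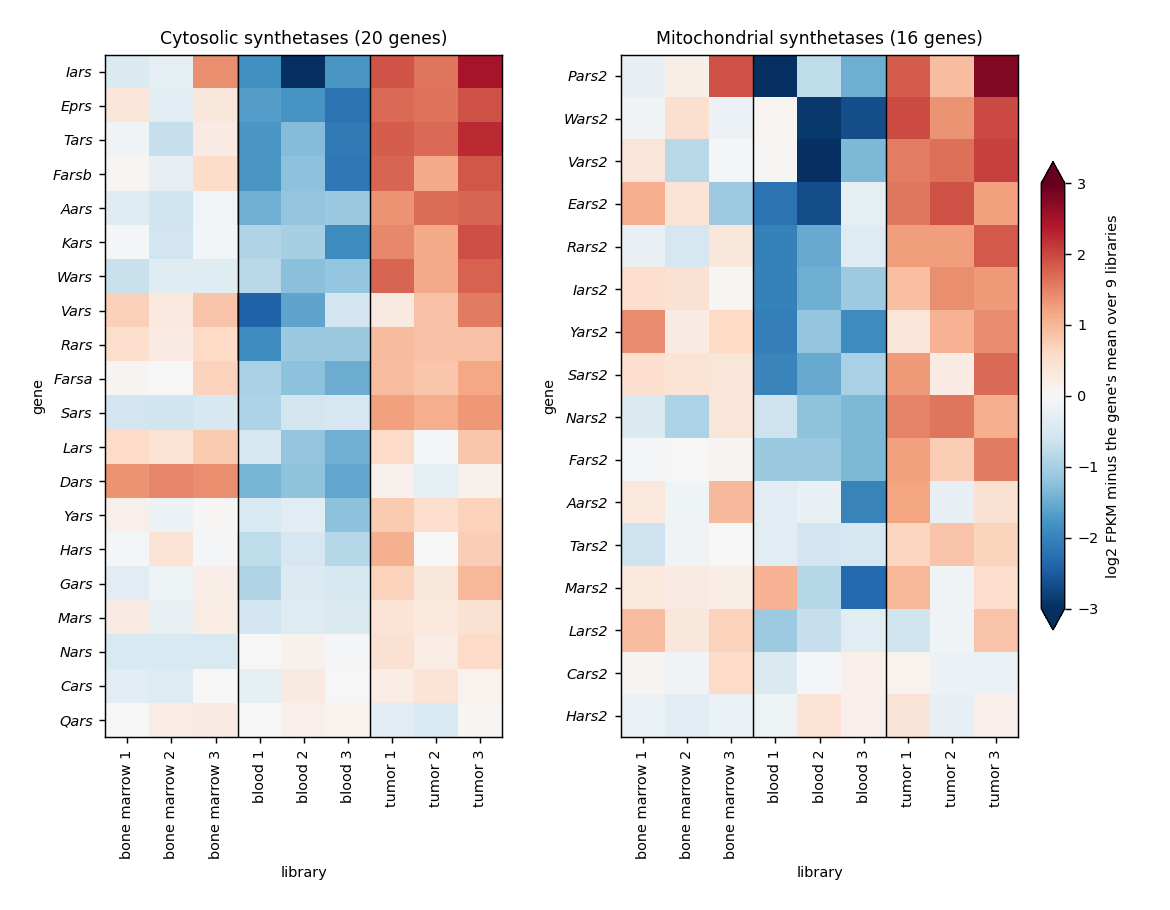
Deposited log2 FPKM of each synthetase gene in each of the 9 libraries, minus the gene's mean over those libraries, on a color scale from -3 to 3 (blue low, red high), for the 20 cytosolic genes on the left and the 16 mitochondrial genes on the right, ordered by tumor minus blood. The blood libraries are mostly blue and the tumor libraries mostly red, with bone marrow between them for 28 of the 36 genes.

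Among the cytosolic enzymes, 18 of 20 were higher in tumor than in blood (39.1% of all genes) and 0 were lower (27.1%). Against bone marrow 13 were higher in tumor (30%) and 2, Dars and Qars, were lower (25.8%). In tumor 12 were higher than in both (23.2%). Iars, which encodes isoleucyl-tRNA synthetase (chromosome 13, 49682100 to 49734267, plus strand, GRCm38), showed the largest cytosolic difference between tumor and blood. It stood at 13.9, 15.5 and 49.7 RPM in bone marrow, at 5.31, 2.15 and 5.55 in blood, and at 69.1, 57.1 and 104 in tumor. Tumor minus blood was 4.21 (SE 0.511, adjusted p 4.36e-05 in limma), an 18.5-fold difference, and tumor minus bone marrow was 1.75 (SE 0.511, adjusted p 0.0137). The tumor libraries did not overlap the others, but bone marrow replicate 3 was over 3 times the other bone marrow libraries, and without bone marrow replicate 1, bone marrow replicate 2 or tumor replicate 3 the call against bone marrow was lost (adjusted p up to 0.0635).

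Tars, for threonyl-tRNA synthetase (chromosome 15, 11382301 to 11399665, minus strand), had the largest difference against bone marrow. Its levels were 19.1, 12.7 and 24.2 RPM in bone marrow, 6.07, 8.24 and 4.69 in blood, and 71.7, 66.1 and 96.3 in tumor. The difference from bone marrow was 2.09 (SE 0.293, adjusted p 0.000145 in limma) and that from blood was 3.63 (adjusted p 2.63e-06). The 3 compartments did not overlap, with blood lowest and tumor highest. Eprs, which encodes a fused glutamyl-prolyl-tRNA synthetase (chromosome 1, 185363044 to 185428360, plus strand), followed the same order, at 44.7, 27.4 and 43.8 RPM in bone marrow, 10.9, 10.03 and 7.46 in blood, and 113, 107 and 131 in tumor. Tumor was 12.4-fold above blood and 3.09-fold above bone marrow (adjusted p 5.27e-07 and 0.000131 in limma).

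Aars (alanyl-tRNA synthetase, chromosome 8, 111033144 to 111057664, plus strand) also had the 3 compartments apart. It was at 29.2, 24.7 and 35.5 RPM in bone marrow, 13.9, 16.6 and 17.5 in blood, and 95.4, 121 and 126 in tumor, 7.08-fold above blood and 3.83-fold above bone marrow. Of the Aars exon bases, 14.3% (1326 bases) are shared with Exosc6 on the same strand, for which no reads were at hand. Wars, for the tryptophanyl enzyme (chromosome 12, 108860030 to 108894174, minus strand), was at 31.9, 39.4 and 39.6 RPM in bone marrow, 28.3, 21.5 and 22.8 in blood, and 171, 111 and 173 in tumor, which was 6.19-fold and 4.05-fold above blood and bone marrow. Wars is known to be induced by interferon-gamma. Kars, for the lysyl enzyme, stood at 46.4, 32.0 and 45.6 RPM in bone marrow, 25.8, 24.0 and 13.0 in blood, and 130, 105 and 182 in tumor, with differences of 2.75 from blood and 1.73 from bone marrow. All of these tumor differences passed the test, and each tumor library exceeded every library of the other compartments.

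The genes for the paired chains of phenylalanyl-tRNA synthetase, Farsa and Farsb, encode partners of 1 enzyme. Farsa was at 28.0, 26.0 and 42.2 RPM in bone marrow, 13.4, 11.1 and 9.38 in blood, and 49.6, 46.9 and 58.4 in tumor. Farsb was at 17.8, 14.3 and 25.0 RPM in bone marrow, 5.06, 7.16 and 3.84 in blood, and 56.6, 37.2 and 61.9 in tumor. Both ordered the compartments without overlap, with tumor minus blood at 2.20 for Farsa and 3.28 for Farsb, and tumor minus bone marrow at 0.72 and 1.45. The Farsa call against bone marrow (adjusted p 0.0198 in limma) was lost without bone marrow replicate 1, bone marrow replicate 2 or tumor replicate 3 (adjusted p up to 0.0808 over the alternatives tried). Farsb shares 248 exon bases with Sgpp2, which lies on the other strand and had 287, 284 and 675 reads in tumor and 0 in each bone marrow library.

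Sars (seryl-tRNA synthetase, chromosome 3, 108424865 to 108445209, minus strand) had overlapping bone marrow and blood libraries. It was at 40.7, 39.6 and 42.9 RPM in bone marrow, 31.4, 41.0 and 42.7 in blood, and 142, 128 and 149 in tumor. Tumor was 3.66-fold above blood and 3.39-fold above bone marrow (adjusted p 2.07e-06 and 3.57e-06 in limma), and blood minus bone marrow was -0.11 (SE 0.145, adjusted p 0.57), a sign that turned to 0.14 under median centring of the libraries. Gars, for the glycyl enzyme of both compartments of the cell, was at 65.9, 76.4 and 95.8 RPM in bone marrow, 44.8, 63.0 and 59.7 in blood, and 135, 106 and 165 in tumor, with tumor minus blood at 1.27 and tumor minus bone marrow at 0.76. Yars, for the tyrosyl enzyme, was at 19.6, 15.7 and 18.1 RPM in bone marrow, 12.9, 14.2 and 7.46 in blood, and 30.6, 25.5 and 28.7 in tumor. For Gars and Yars too each tumor library was above all others, but the Yars call against bone marrow (adjusted p 0.0479 in limma) was lost in 15 of 24 alternatives, among them the removal of any 1 tumor or bone marrow library.

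Nars, for the asparaginyl enzyme, was the only synthetase called higher in blood than in bone marrow, with 113, 112 and 112 RPM in bone marrow, 155, 170 and 152 in blood, and 211, 180 and 232 in tumor. The compartments did not overlap. Blood minus bone marrow was 0.50 (SE 0.117, adjusted p 0.00591 in limma) and tumor minus bone marrow was 0.88 (adjusted p 9.73e-05). Tumor minus blood was 0.38 (adjusted p 0.0147), close to the median of all genes, and took the opposite sign, at -0.095, under median centring. That call was lost without blood replicate 3 and with no variance trend (adjusted p up to 0.481 over the alternatives).

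Dars, for the aspartyl enzyme (chromosome 1, 128363707 to 128417368, minus strand), had its highest level in bone marrow, as did Lars, Qars, Cars2 and Lars2 by their means, and was the only one of the 5 with every bone marrow library above every other library. Bone marrow held 171, 187 and 179 RPM, blood 25.6, 29.0 and 23.0, and tumor 73.5, 55.5 and 73.5. The 3 compartments were far apart, with blood 6.93-fold below bone marrow (adjusted p 6.62e-07 in limma), tumor 2.67-fold below bone marrow (adjusted p 1.84e-05) and tumor 2.60-fold above blood (adjusted p 1.93e-05). Qars, for the glutaminyl enzyme, varied little, at 74.6, 86.1 and 88.1 RPM in bone marrow, 73.6, 82.7 and 79.1 in blood, and 60.0, 53.7 and 76.4 in tumor. It was called lower in tumor than in bone marrow by 0.40 on the log2 scale (SE 0.150, adjusted p 0.0417), although the libraries of these compartments overlapped, the call was lost in 13 of 25 alternatives, and the sign turned to 0.051 when plain library totals replaced the scaled sizes. Cars, for the cysteinyl enzyme, was called higher in tumor than in bone marrow by 0.48 (adjusted p 0.0448), a call lost in 13 of 25 alternatives, and its tumor minus blood difference of 0.25 was not called (adjusted p 0.242).

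The other 5 cytosolic genes, Hars, Lars, Mars, Rars and Vars, were higher in tumor than in blood and lower in blood than in bone marrow, with no call between tumor and bone marrow. Tumor minus blood ran from 0.86 for Mars (methionyl) to 2.43 for Vars (valyl). Vars, the gene of these with the largest differences, was at 76.0, 56.7 and 83.3 RPM in bone marrow, 8.60, 15.4 and 31.1 in blood, and 55.9, 84.8 and 136 in tumor, where replicate 3 was the highest of the 9 libraries and replicate 1 lay below all bone marrow libraries. Blood minus bone marrow was -2.14 for Vars (adjusted p 0.00265 in limma), -1.82 for Rars (arginyl, adjusted p 8.04e-05) and -1.63 for Lars (leucyl, adjusted p 0.00093). Hars (histidyl), at -0.80 (adjusted p 0.0337), lost that call in 13 of 25 alternatives and shares 195 exon bases with Hars2 on the other strand. Mars shares 68 exon bases with Ddit3 on the other strand. Ddit3 had 563, 639 and 439 reads in tumor and 97 to 374 elsewhere.

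**Figure D2:**
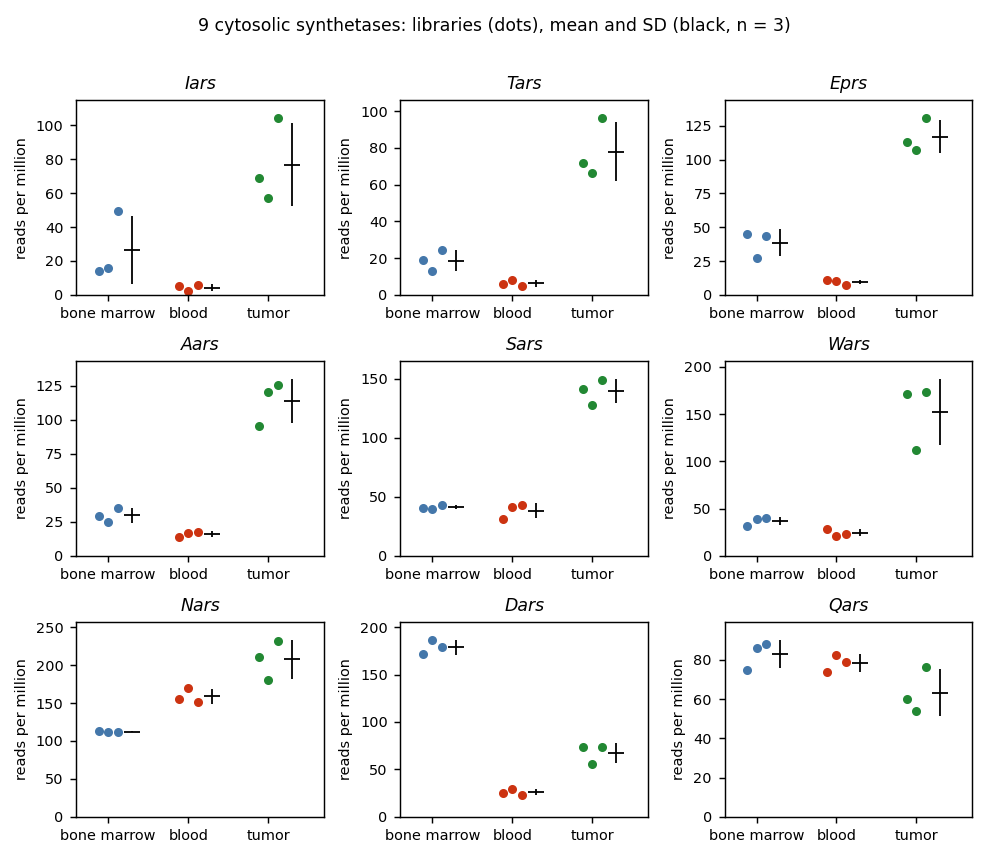
RPM of 9 cytosolic synthetase genes in bone marrow, blood and tumor, with 1 dot per library and the mean ± SD (n = 3) in black, on linear axes that start at 0. Iars, Tars, Eprs, Aars, Sars and Wars have all tumor libraries above the rest, Nars climbs from bone marrow to blood to tumor, Dars is highest in bone marrow at 171 to 187 RPM, and Qars overlaps between compartments.

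The multisynthetase complex holds 8 of the cytosolic genes (Dars, Eprs, Iars, Kars, Lars, Mars, Qars and Rars). Of these, 7 were higher in tumor than in blood (39.1% of all genes) and 7 were lower in blood than in bone marrow (24.6%). Qars was the exception in both. Against bone marrow 3 were higher in tumor (Eprs, Iars and Kars), 2 were lower (Dars and Qars) and 3 had no call. These shares were near those of all genes (30% higher and 25.8% lower), and the Iars and Qars calls have the limits given above. Of the 12 cytosolic genes outside the complex, 11 were higher in tumor than in blood and 10 were higher in tumor than in bone marrow, with 0 lower. The median of tumor minus bone marrow was 0.38 for the complex and 0.82 for the others, a difference that was not tested. The complex summed to 201 to 225 RPM in blood, 491 to 593 in bone marrow and 551 to 781 in tumor.

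Among the scaffold genes of the complex, Aimp1, Aimp2 and Eef1e1 (also named AIMP3) were all higher in tumor than in blood. Eef1e1 changed most, with 24.0, 17.3 and 18.0 RPM in tumor, 6.73, 5.48 and 6.48 in bone marrow and 0.253, 0.716 and 1.07 in blood, with tumor minus blood at 4.98 (SE 0.507, adjusted p 1.3e-05 in limma) and tumor minus bone marrow at 1.65 (adjusted p 0.0176). The blood values rest on 1 to 5 reads per library. Aimp1 and Aimp2 were above blood in tumor by 1.63 and 1.39 and were not called against bone marrow (adjusted p 0.389 and 0.116).

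Of the 16 mitochondrial enzymes, 11 were higher in tumor than in blood (39.1% of all genes), 5 were higher than in bone marrow as well, a share near the 30% of all genes, and 7 were lower in blood than in bone marrow (24.6% of all genes). The 5 were Iars2, Rars2, Nars2, Fars2 and Tars2, which charge tRNAs inside mitochondria with isoleucine, arginine, asparagine, phenylalanine and threonine. Their sum for all 16 genes was 298, 228 and 282 RPM in bone marrow, 121, 135 and 151 in blood, and 275, 284 and 404 in tumor, so that tumor replicates 1 and 2 lay within the bone marrow range. Per kilobase of exon (union of GENCODE M21 exons) the median level was 0.479 RPM in blood, 1.21 in bone marrow and 1.89 in tumor, against 4.50, 9.99 and 16.0 for the cytosolic genes, so many mitochondrial members were counted in few reads. Lars2 took the most reads of the 16 genes in each of the 9 libraries.

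Iars2 was at 22.3, 21.2 and 15.8 RPM in bone marrow, 3.796, 5.55 and 7.25 in blood, and 29.2, 40.5 and 37.4 in tumor, with tumor minus blood at 2.72 (SE 0.281, adjusted p 1.43e-05 in limma) and tumor minus bone marrow at 0.85 (adjusted p 0.0244), a call lost in 6 of 24 alternatives. Of the Iars2 exon bases, 22.9% are shared with Rab3gap2 on the other strand, which had 451 to 844 reads in every library. Rars2 was at 8.82, 7.25 and 13.1 RPM in bone marrow, 2.53, 3.58 and 7.89 in blood, and 24.7, 24.6 and 37.0 in tumor. Tumor minus blood was 2.75 and tumor minus bone marrow 1.58 for Rars2. Its blood minus bone marrow difference was -1.18 (adjusted p 0.0456 in limma), a call lost in 19 of 24 alternatives. In Iars2, Rars2, Nars2, Tars2 and Fars2, every tumor library was above every other library.

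Nars2 was at 4.04, 2.83 and 7.08 RPM in bone marrow, 3.54, 2.33 and 2.13 in blood, and 15.3, 16.7 and 11.6 in tumor, 5.45-fold above blood and 3.30-fold above bone marrow. Both Nars2 calls were lost under quantile normalization (adjusted p 0.499 and 0.868 in limma). Tars2 was at 13.2, 18.7 and 20.03 RPM in bone marrow, 15.9, 13.6 and 14.3 in blood, and 31.9, 36.9 and 32.1 in tumor, 2.30-fold above blood and 1.97-fold above bone marrow. Fars2 was at 6.28, 6.54 and 6.93 RPM in bone marrow, 3.04, 3.04 and 2.56 in blood, and 15.6, 11.2 and 19.5 in tumor, 5.20-fold above blood and 2.29-fold above bone marrow. The Fars2 differences took the opposite sign under quantile normalization (-1.23 from blood, -1.93 from bone marrow), and the gene shares 501 exon bases with Nrn1 on the other strand, which had 186, 124 and 495 reads in tumor and 0 to 3 elsewhere.

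Pars2, for the mitochondrial prolyl enzyme, had the largest difference of all 36 genes, on very few reads. It had 7, 8 and 32 reads in bone marrow, 0, 4 and 2 in blood, and 28, 18 and 70 in tumor. Tumor minus blood was 4.31 (SE 1.11, adjusted p 0.00574 in limma), and blood minus bone marrow was -3.08 (adjusted p 0.0449), a call lost in 18 of 24 alternatives. Wars2 was at 2.69, 4.07 and 2.56 RPM in bone marrow, 3.04, 0.358 and 0.427 in blood, and 11.4, 7.41 and 11.6 in tumor, with tumor minus blood at 3.60 (adjusted p 0.00147) and no call against bone marrow (1.70, adjusted p 0.0715). The Wars2 call against blood was lost under quantile normalization (adjusted p 0.184 in limma). Yars2 was at 8.82, 3.89 and 4.97 RPM in bone marrow, 0.759, 1.43 and 0.853 in blood, and 4.19, 6.74 and 8.81 in tumor, so that blood stood below overlapping bone marrow and tumor libraries (tumor minus blood 2.64, blood minus bone marrow -2.46, adjusted p 0.00101 and 0.00304).

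The other mitochondrial genes called between tumor and blood were Ears2, Vars2 and Sars2, all higher in tumor, with differences of 3.30, 3.30 and 2.56. Ears2 rests on few reads, with 1, 1 and 5 in blood and 25, 38 and 25 in tumor. It shares 89 exon bases with Ubfd1 on the other strand. Ubfd1 had 92, 75 and 198 reads in tumor and 2, 20 and 11 in blood. The Ears2 and Sars2 calls were lost under quantile normalization (adjusted p 0.209 and 0.0672 in limma). Lars2, for the leucyl enzyme, was called only between blood and bone marrow (-1.36, adjusted p 0.00768 in limma), at 180, 119 and 153 RPM in bone marrow, 44.0, 58.2 and 75.5 in blood, and 62.2, 87.8 and 171 in tumor. Its tumor libraries spanned the range from blood to bone marrow, and replicate 3 was the highest of the 3. The rRNA-like transcript Gm26917 moved alongside, at 148 to 197 RPM in bone marrow, 17.2 to 21.01 in blood, and 136, 143 and 389 in tumor, and its part in the Lars2 values was not tested. Aars2, Cars2, Hars2 and Mars2 had no call in any comparison, with tumor minus blood between -0.044 (Hars2) and 1.31 (Aars2).

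**Figure D3:**
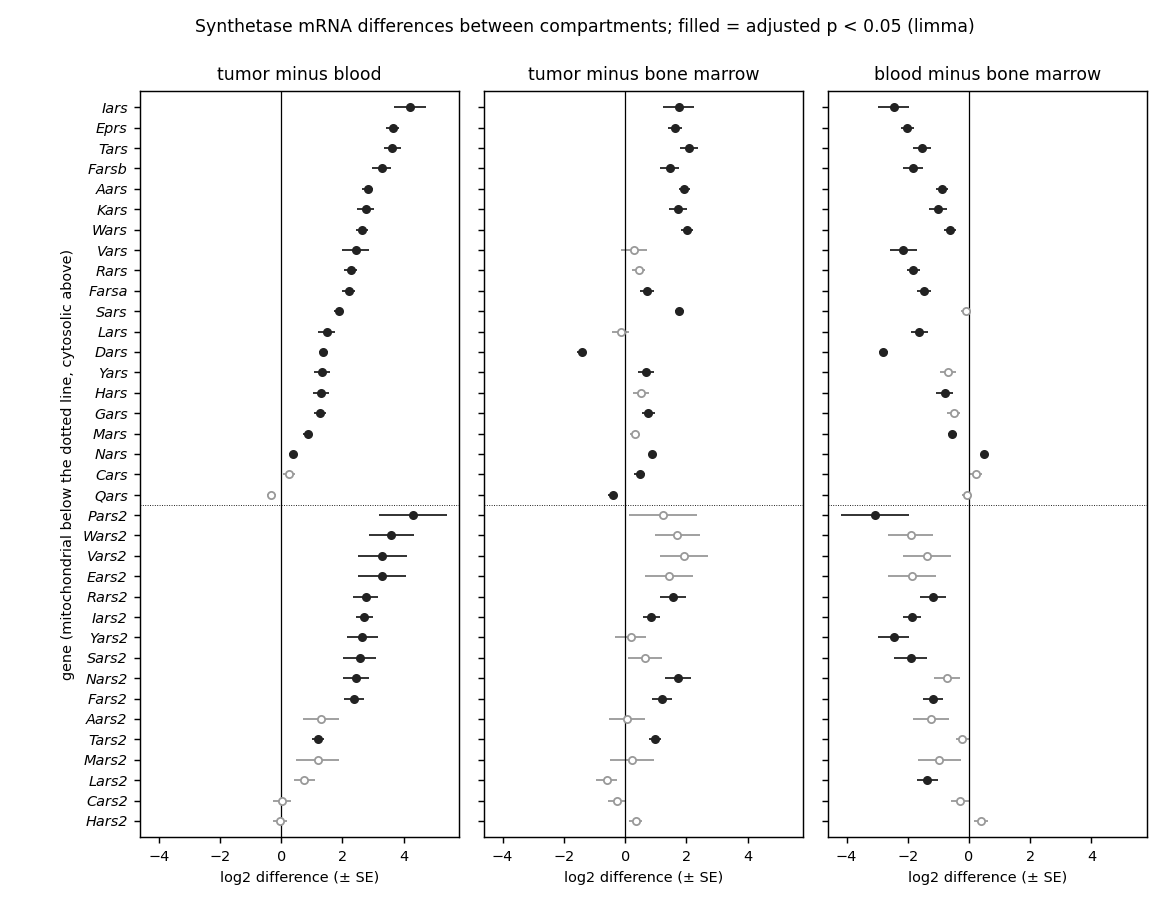
Log2 difference ± SE of each of the 36 synthetases for tumor minus blood, tumor minus bone marrow and blood minus bone marrow, with filled points where the adjusted p in limma was under 0.05 and open points elsewhere, cytosolic genes above the dotted line and mitochondrial genes below it. In the left panel 29 filled points lie to the right of 0 and none to the left, in the middle panel 18 lie to the right and Dars and Qars to the left, and in the right panel 21 lie to the left and Nars to the right.

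By structural class of the catalytic domain, 14 of 19 class I genes and 15 of 17 class II genes were higher in tumor than in blood, and 7 of 19 and 11 of 17 were higher in tumor than in bone marrow, against 39.1% and 30% of all genes, so that class I was near the share of all genes in the latter. The gene of the fused glutamyl-prolyl enzyme, Eprs, was counted wholly with class I. The difference between the classes was not tested.

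Promoter sequences (RefSeq, GRCm38.p6, 250 bases before to 50 after the gene start) were at hand for 13 of the 20 cytosolic and 14 of the 16 mitochondrial genes. They were searched for TGATGNAA on both strands, the core of the composite element bound by ATF4 with C/EBP proteins, and no other motif was searched. It was present for 5 of the 13 cytosolic genes (Aars, Gars, Iars, Tars and Yars) and 0 of the 14 mitochondrial genes, against 1219 of 27025 genes with a promoter (4.51%) and 274 of the 9332 that were also tested here (2.94%). Tumor was called above blood and above bone marrow for all 5 genes that hold it, with the limits given above for Yars and Iars, and also for 5 of the 8 cytosolic genes whose promoter lacks it (Eprs, Farsa, Farsb, Kars and Sars). A match of letters is a description and not a bound site. For each gene the match nearest the gene start is shown so that the letters found can be read, with 11 bases on each side, the motif in capitals, and each written 5′ to 3′ on the gene's strand. They lie at chr8:111033840-111033869 (plus strand) for Aars, chr6:55037960-55037989 (plus) for Gars, chr13:49682126-49682155 (plus) for Iars, chr15:11399655-11399684 (minus) for Tars, and chr4:129189895-129189924 (plus) for Yars.
Aars: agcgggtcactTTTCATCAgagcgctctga
Gars: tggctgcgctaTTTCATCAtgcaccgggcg
Iars: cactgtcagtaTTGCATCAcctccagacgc
Tars: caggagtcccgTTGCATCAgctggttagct
Yars: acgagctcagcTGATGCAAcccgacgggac
Only Yars has the motif on the strand of the gene, and the others hold its reverse complement. Dars, Qars, Eprs, Farsa, Farsb, Kars, Mars and Sars had a promoter without these letters. Cars, Hars, Lars, Nars, Rars, Vars, Wars, Hars2 and Pars2 were not searched.

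Other genes of the amino acid response were higher in tumor alongside the synthetases, but not all of them. Of 27 such genes, 26 were tested, and 20 were higher in tumor than in blood and 4 were lower (39.1% and 27.1% of all genes), while 16 were higher in tumor than in bone marrow and 1 was lower (30% and 25.8%). The list summed to 2908 to 3642 RPM in tumor, 983 to 1097 in blood and 721 to 772 in bone marrow. Atf4 itself, named for its place in the pathway after its values were seen, was at 115, 103 and 98.3 RPM in bone marrow, 107, 87.2 and 86.6 in blood, and 223, 306 and 212 in tumor, with tumor minus blood at 1.39 and tumor minus bone marrow at 1.21 (adjusted p 2.86e-05 and 8.91e-05 in limma). Phgdh and Psat1, which encode enzymes of serine synthesis, were above blood by 5.59 and 5.44. Phgdh had 231, 108 and 265 reads in bone marrow, 23, 22 and 6 in blood, and 976, 910 and 1450 in tumor, while Psat1 was higher than in blood but was not called against bone marrow (adjusted p 0.277). Vldlr (a lipoprotein receptor) and Stc2 (a secreted stanniocalcin) were also called, with 44, 87 and 176 and with 11, 19 and 42 reads in tumor against 0 or 1 read in each blood library, too few for a fold.

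The 4 genes of the list that were lower in tumor than in blood were Eif2ak3 (the kinase PERK), Chac1 (a glutathione-degrading enzyme), Cebpg (a C/EBP partner of ATF4) and Sesn2 (a leucine sensor). Their differences were -1.69, -1.54, -1.16 and -0.98, and all 4 were higher in blood than in bone marrow, by 1.02, 1.47, 1.11 and 1.15. Chac1, for example, was at 19.1, 20.9 and 21.1 RPM in bone marrow, 56.4, 52.6 and 60.4 in blood, and 19.3, 26.3 and 14.4 in tumor. Blood was thus the high compartment for these genes and the low compartment for most synthetases.

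Among the 12 other genes of aminoacylation and tRNA quality, 10 were tested, with 5 higher and 1 lower in tumor than in blood (39.1% and 27.1% of all genes), and 2 higher and 1 lower than in bone marrow (30% and 25.8%), so the shares higher did not stand clear of those of all genes. Mitochondria make glutaminyl-tRNA through an amidotransferase, whose subunit genes Gatb and Qrsl1 were above blood by 3.97 and 2.21 (adjusted p 0.000543 and 0.0117 in limma), while Gatc differed by -0.18 (adjusted p 0.678). Of 12 interferon-induced genes, set beside Wars, 5 were higher and 4 lower in tumor than in blood, shares near those of all genes (39.1% and 27.1%), and 9 were higher and 1 lower than in bone marrow (30% and 25.8% of all genes). The median tumor minus blood of that list was -0.19, and in blood 6 were higher and 0 lower than in bone marrow (17.8% and 24.6% of all genes). The list summed to 1958 to 2350 RPM in blood, 1256 to 1909 in tumor and 689 to 831 in bone marrow. Cxcl10, a chemokine of that list, had 13, 5 and 4 reads in blood, 4, 3 and 0 in bone marrow, and 702, 845 and 372 in tumor.

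**Figure D4:**
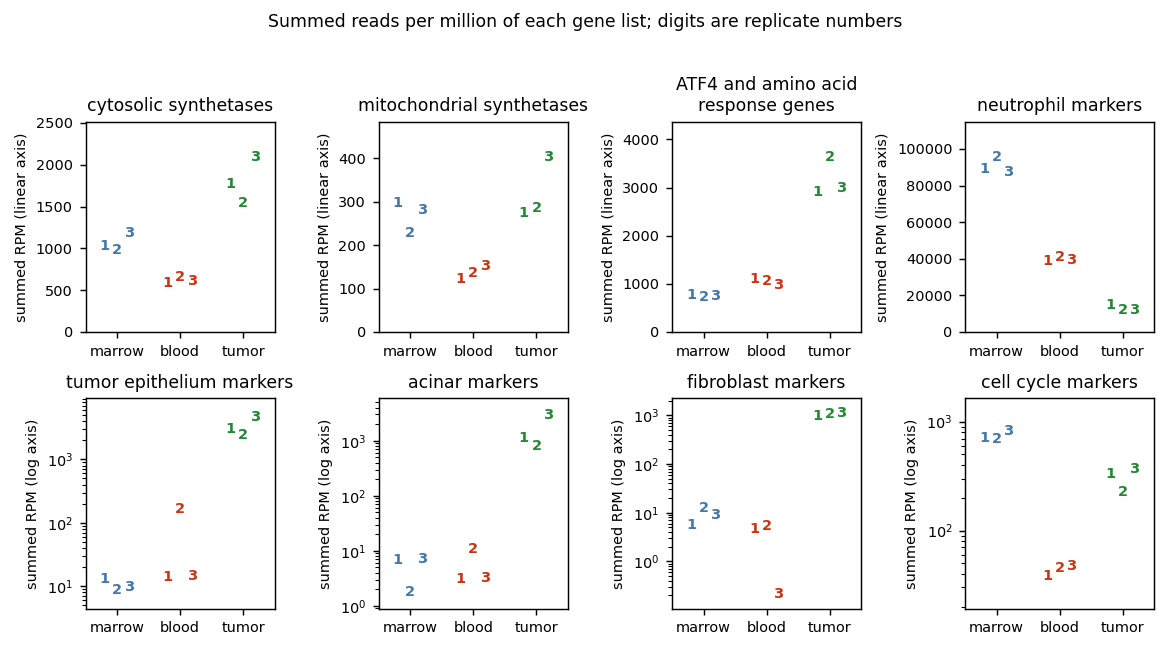
Summed RPM of 8 gene lists in each library, with the digit giving the replicate number, on linear axes from 0 in the upper row and log axes in the lower row. Cytosolic synthetases and amino acid response genes are highest in the 3 tumor libraries, as are epithelial, acinar and fibroblast markers, with replicate 3 the highest tumor library for both synthetase groups and for the epithelial and acinar markers, while neutrophil markers are lowest in tumor (11908 to 14477 RPM) and cell cycle markers lowest in blood (38.2 to 47.3 RPM).

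The counts in tumor were set beside the libraries that stood apart. Without tumor replicate 3, 29 synthetases were higher in tumor than in blood, 14 were higher than in bone marrow and 13 were higher than in both. Without blood replicate 2, the library with epithelial transcripts, 29 were higher in tumor than in blood and 20 were lower in blood than in bone marrow. The share of genes called higher and lower depended on the scaling of the libraries. With plain library totals 6316 genes were higher and 2434 lower in tumor than in blood, against 5094 and 3523 with the scaled sizes and 4070 and 4806 with median centring, and the synthetases called higher numbered 32, 29 and 28. Against bone marrow the corresponding genes were 5407 and 2146, 3904 and 3354, and 3332 and 4082, and the synthetases called higher numbered 24, 18 and 14. Between blood and bone marrow, 2320 genes were higher and 3206 lower with the scaled sizes, 3064 and 2405 with median centring and 2351 and 2264 with quantile normalization, and the synthetases lower in blood numbered 21, 16 and 15.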

How the data were processed

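SMARTSeq v2 cDNA of sorted neutrophils was sequenced in 9 libraries. The authors deposited log2 FPKM per gene. Per the submitters' processing notes, STAR 2.5.2b, featureCounts 1.5.0 and edgeR 3.8.6 were used with GRCm38, and library sizes were scaled. Whether strand was used in counting is not given in the sources used here, so antisense partners cannot be told apart. How reads in exons shared on the same strand, as for Aars, were assigned is not given either. For 84.8% of the identifiers found in GENCODE M21 the FPKM length was the genomic span, so RPM is used within genes and exon length between genes.

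Whole reads were recovered from the steps of the deposited log2 FPKM values for 46517 of 46517 genes (tolerance 0.01 reads). limma 3.58.1 (R 4.3.3) was fitted to the deposited log2 FPKM of all 9 libraries, with a variance trend on mean log2 reads, for genes with at least 10 reads in at least 3 libraries, and was tested on simulated data. No replicate block was used in the main fit, as the study's methods name none. The paper does describe the compared bone marrow and blood neutrophils as taken from the same mouse. The main fit treats the 9 libraries as independent, and a fit with a replicate block is given below. Every member was accounted for. Libraries were listed in full for members called in both tumor comparisons or among the 5 largest called differences of a comparison, and up to 8 amino acid response genes were named by size of change in tumor against blood. The members, lists and tests were chosen with earlier results of these data known. Alternatives covered filters, normalization, pseudocounts, variance models and the removal of each library.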

Additional observations from a re-analysis of the deposited data

How the results depend on the processing

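Over 25 alternatives and 3 comparisons per gene, the direction and the side of the threshold were kept in 2409 cases, a call was lost in 152 and gained in 49, and the sign turned in 39. Leaving out each library in turn gave 29 to 30 synthetases higher in tumor than in blood and 0 to 1 lower, 14 to 20 higher and 1 to 3 lower than in bone marrow, 1 to 1 higher and 16 to 21 lower in blood than in bone marrow, and 13 to 19 higher and 0 to 1 lower in tumor than in both. The 1 gene lower than in blood came with tumor replicate 3 left out. Requiring log2 FPKM over 0 in 3 libraries left 7794 genes to test and dropped some members. Of the members still tested, 18 were higher in tumor than in blood, 0 were lower, and 11 were higher than in both. Of all 7794 genes, 2205 were higher and 2717 lower in tumor than in blood. Over the 3 comparisons, the label of the members still tested was kept in 65 cases. A call was lost in 1, Pars2 between blood and bone marrow, so no tumor call of a member still tested was lost. The 18 and 11 are thus counts over fewer members than the 29 and 17 of the main fit. An absolute difference of at least 1 left 11 higher than in bone marrow and 11 higher than in both, with 0 higher and 17 lower in blood than in bone marrow. Genes lower in tumor than in bone marrow fell from 2 to 1 with no filter, at least 5 reads in any library, no variance trend, plain totals, the absolute difference of 1, or only the 2 compartments compared. Median centring gave 1, 3 and 1 lower in tumor than in blood, bone marrow and both, with 2 higher in blood than in bone marrow, and quantile normalization gave 2, 3 and 2. A pseudocount of 1 FPKM left 12 lower in blood than in bone marrow. Beyond the smaller sets these choices test, the cause was not tested.

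With the replicate number as a replicate block, tumor exceeded blood for 30 synthetases and bone marrow for 17, 21 were lower in blood and 17 were higher in tumor than in both. Whether same-numbered libraries came from the same experiment is not given in the sources used here. The correlations of same-numbered deviations ran from -0.143 to 0.0787 and not every library correlated best with its own number. Among the tumor libraries, each bone marrow library correlated best with the one of its own number (0.0075, 0.055 and 0.055). These correlations are weak and cannot settle whether the libraries were paired.

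The signs that turned were, for tumor minus blood, Cars (-0.22 under median centring, -0.086 under quantile normalization), Nars (-0.095, centring), Qars (0.13, plain totals), Cars2 (-0.46, centring; -1.18, quantile; -0.021, limma-voom), Fars2 (-1.23, quantile) and Hars2 (0.40, plain totals). For tumor minus bone marrow they were Lars (0.31), Qars (0.051) and Cars2 (0.18) with plain totals, Aars2 (-0.16), Mars2 (-0.0019) and Yars2 (-0.046) under centring, Aars2 (-0.44), Ears2 (-0.11), Fars2 (-1.93), Mars2 (-0.086), Wars2 (-0.13) and Yars2 (-0.012) under quantile normalization, and Aars2 (-0.0011) with limma-voom. For blood minus bone marrow they were Qars (0.17), Sars (0.14) and Tars2 (0.025) under centring, and Sars (0.037) and Cars2 (0.12) under quantile normalization. With 1 library left out at a time, the signs that turned ran from -0.15 to 0.14 for Cars2 and from -0.19 to 0.13 for Hars2 (tumor minus blood), from -0.33 to 0.11 for Lars, -0.046 to 0.60 for Vars, -0.30 to 0.42 for Aars2, -0.040 to 0.51 for Mars2 and -0.073 to 0.51 for Yars2 (tumor minus bone marrow), and from -0.19 to 0.027 for Sars (blood minus bone marrow).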
